A study of Homo sapiens with 8 samples.

Results

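The metalloproteinases, their tissue inhibitors and the urokinase system were followed in prostate cancer cells forced to express activated Notch1. These genes were MMP1, MMP10, MMP13, MMP14, TIMP1, TIMP2, TIMP3, PLAU and PLAUR, and every probe set was taken whose platform annotation gave 1 symbol equal to one of them. That rule found 13 probe sets for all 9 genes, of 12558 probe sets tested, 10943 of which carried 1 symbol. The study hybridised 8 oligonucleotide arrays in 4 groups of 2: LNCaP cells with activated Notch1, LNCaP cells with the GFP control, PC3 cells with activated Notch1 and PC3 cells with the GFP control. LNCaP is an androgen-responsive human prostate carcinoma line and PC3 an androgen-independent one, and both were exposed acutely. GFP, a fluorescent protein, stands in the controls for the introduced gene. The methods describe adenoviral and retroviral vectors, but the sources used here do not name the vector or the exposure time of the arrayed cells. The methods mention 2 chips per sample, and nothing says that the arrays of a group came from separate cultures. The p-values therefore cover array-to-array variation only, and that variation could be purely technical.

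Matrix metalloproteinases are zinc-dependent endopeptidases that cleave the proteins of the extracellular matrix, and most are secreted as inactive proenzymes. Tissue inhibitors of metalloproteinases (TIMPs) block them by binding the active site. Urokinase, the product of PLAU, is a serine protease that converts plasminogen to plasmin at the cell surface while bound to its receptor, the product of PLAUR, and plasmin can in turn activate several metalloproteinase proenzymes. In carcinomas these enzymes are known for their part in invasion through the basement membrane. Notch1, once cleaved, acts in the nucleus with the DNA-binding protein CSL.

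Expression values are log2 units, so a difference of 1 is a doubling, and differences between groups are taken within a probe set only. Between probe sets, levels were only ranked within an array or by mean level. A log2 level of 5 was used to mark values near the background. Between 31.9% and 33.0% of the probe sets lay under it on the LNCaP arrays and between 36.6% and 37.6% on the PC3 arrays. A probe set was called when its p from limma, adjusted by the Benjamini-Hochberg method over all 12558 probe sets, was under 0.05. HES1, a direct target of Notch, rose 6.88-fold in LNCaP (log2 2.78, SE 0.12, limma adjusted p = 3.12e-07) and 5.89-fold in PC3 (log2 2.56, SE 0.12, adjusted p = 4.22e-07). Arrays of 1 group correlated at r = 0.995 to 0.998 over all probe sets. Of 6 genes of LNCaP identity 4 (KLK3, KLK2, TMPRSS2 and ACP3) were higher in LNCaP GFP than in PC3 GFP cells, KRT18 was lower (-1.42) and KRT8 did not pass (0.03). KLK2 and ACP3 were under log2 5 on all PC3 arrays. Of 12 genes known for PC3 cells 10 were lower in LNCaP GFP cells. AXL (-0.09) and KRT5 (0.22) did not pass, and KRT5 was under log2 5 on all 8 arrays.

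The promoters of the genes that changed are printed for those in the reference table, together with the 2 genes whose windows held an AP-1 element. Each window is the 250 bases before an annotated start on the gene's own strand, from RefSeq (GRCh38.p14), and 6 of the 9 genes matched. Capitals mark matches to TGANTCA, the element bound by AP-1, which reads the same on either strand, or to TGGGAA, the core bound by CSL, searched on both strands and written TTCCCA where it lay on the other one. TIMP1 (chrX:47582186-47582435, plus strand) and PLAU (plus strand, with starts after chr10:73910360-73910609 and chr10:73910882-73911131) are the 2 called above the background in PC3. PLAUR (chr19:43670170-43670419, minus strand) and MMP10 (chr11:102780629-102780878, minus strand) hold AP-1 elements.
TIMP1: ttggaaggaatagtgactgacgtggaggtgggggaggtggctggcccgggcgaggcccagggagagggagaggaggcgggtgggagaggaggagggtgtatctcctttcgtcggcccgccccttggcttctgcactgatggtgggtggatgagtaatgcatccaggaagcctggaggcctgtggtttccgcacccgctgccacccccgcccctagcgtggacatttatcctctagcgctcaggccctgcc
PLAU, upstream start: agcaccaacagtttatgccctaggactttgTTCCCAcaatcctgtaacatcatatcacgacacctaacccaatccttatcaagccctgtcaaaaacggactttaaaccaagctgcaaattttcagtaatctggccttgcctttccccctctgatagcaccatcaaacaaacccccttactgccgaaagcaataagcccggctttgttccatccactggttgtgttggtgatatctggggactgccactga
PLAU, downstream start: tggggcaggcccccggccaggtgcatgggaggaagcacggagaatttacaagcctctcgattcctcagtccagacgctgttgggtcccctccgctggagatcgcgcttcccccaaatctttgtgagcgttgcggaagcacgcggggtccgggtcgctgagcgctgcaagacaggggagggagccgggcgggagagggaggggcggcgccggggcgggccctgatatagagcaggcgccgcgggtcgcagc
PLAUR: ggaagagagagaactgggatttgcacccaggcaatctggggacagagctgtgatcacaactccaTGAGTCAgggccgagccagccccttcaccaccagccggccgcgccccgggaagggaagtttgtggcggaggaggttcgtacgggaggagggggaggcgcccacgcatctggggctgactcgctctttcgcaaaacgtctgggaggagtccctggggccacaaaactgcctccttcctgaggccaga
MMP10: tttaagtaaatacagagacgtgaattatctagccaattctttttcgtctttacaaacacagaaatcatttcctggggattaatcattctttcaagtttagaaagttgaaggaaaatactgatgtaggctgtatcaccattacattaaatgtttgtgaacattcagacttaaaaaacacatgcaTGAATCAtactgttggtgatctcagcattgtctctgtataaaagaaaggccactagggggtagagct
The AP-1 element began 186 bases before the start of PLAUR and 67 before that of MMP10. The CSL core began 220 bases before the upstream start of PLAU, and neither motif was found in the windows of TIMP1, TIMP3 and MMP14 or before the downstream start of PLAU. Of 35116 promoter windows of this length, 6.57% held the AP-1 element and 20.8% the CSL core. These matches are a description of the letters only.

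In PC3 cells activated Notch1 moved 4 of the 9 genes: TIMP1 and PLAU rose, and the collagenases MMP1 and MMP13 fell. TIMP1 rose 3.35-fold and PLAU 1.88-fold, and PLAU already stood above 91.4% to 92.0% of the probe sets on the PC3 GFP arrays. MMP1 fell by 2.87 on the log2 scale, from just over log2 5 to under it. MMP13 fell by 1.90, from values already under log2 5. With values under log2 5 raised to 5 neither fall was called. Every MMP13 value and all but the PC3 GFP values of MMP1 lay under 5, so that setting could not weigh the falls. The other 5 genes (MMP10, MMP14, TIMP2, TIMP3 and PLAUR) did not pass the test at any of their 9 probe sets. In LNCaP cells none of the 13 probe sets passed it. Over all probe sets 6.2% passed in PC3 and 17.3% in LNCaP.

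**Figure D1:**
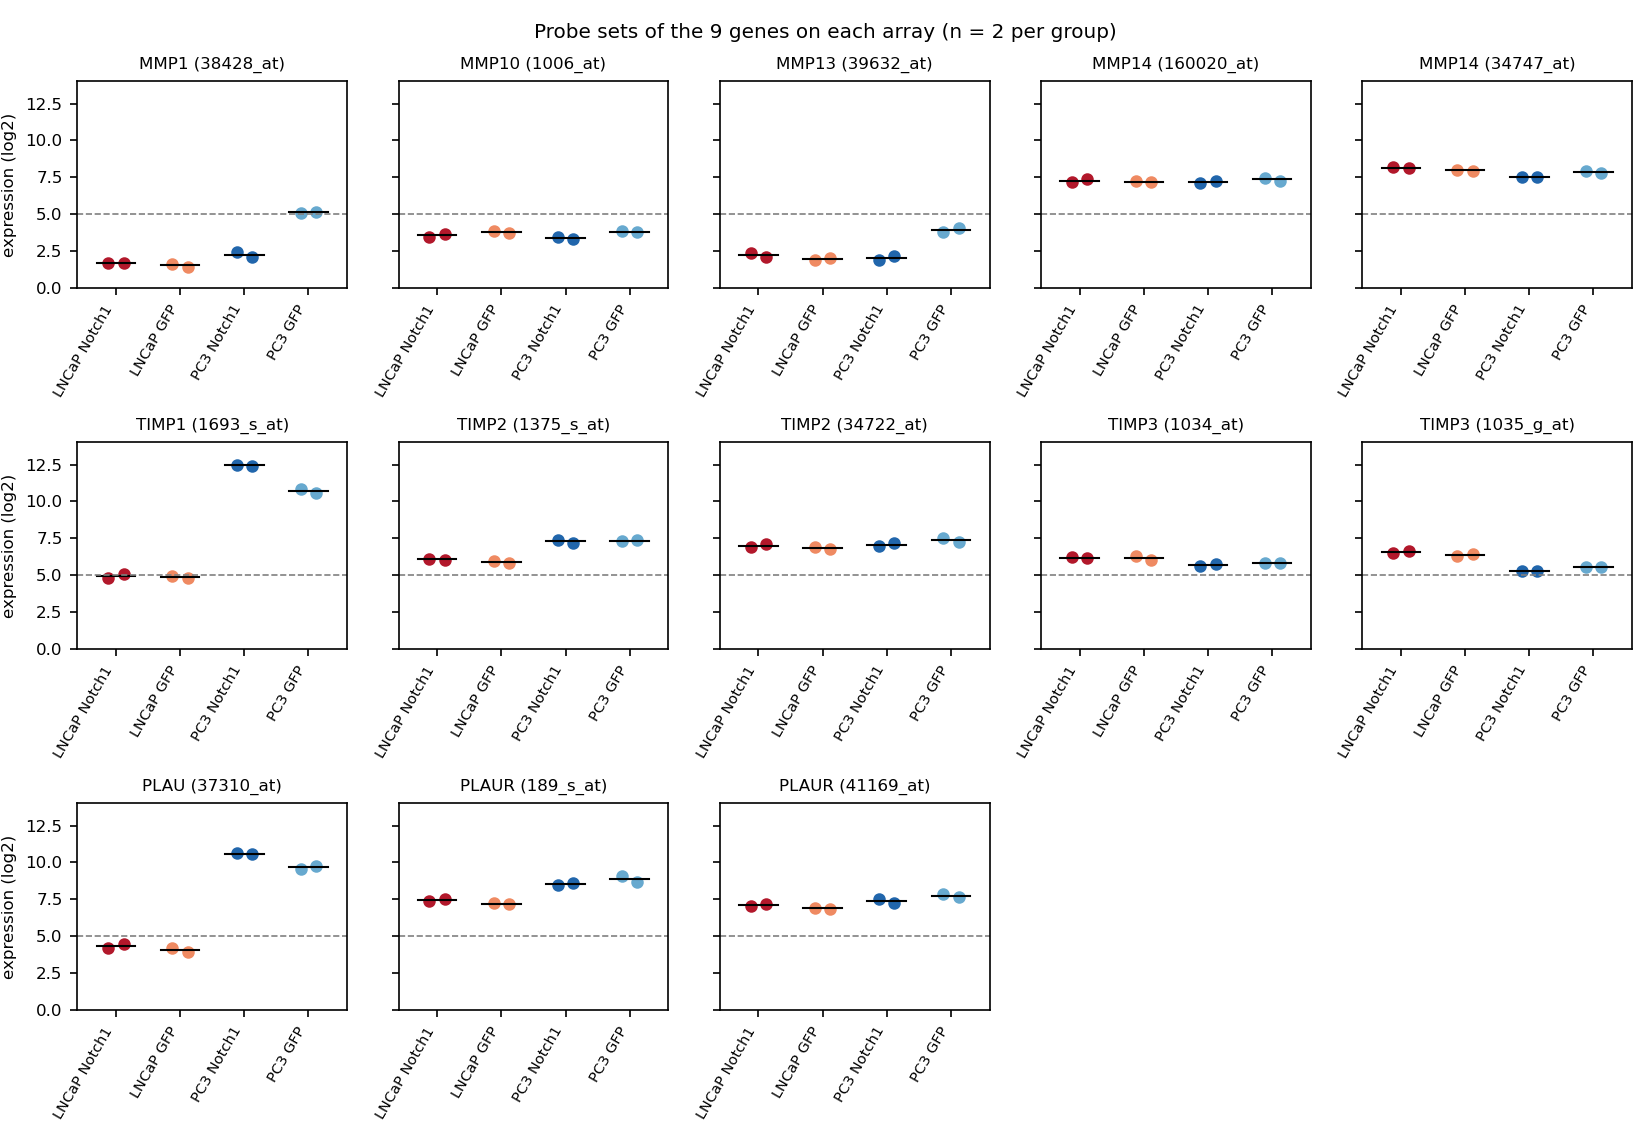
Expression (log2) of the 13 probe sets of the 9 genes on each array, with 1 panel per probe set and the groups from left to right LNCaP Notch1, LNCaP GFP, PC3 Notch1 and PC3 GFP. Points are arrays, the black line is the group mean of 2 arrays, and the dashed line is log2 5. TIMP1 and PLAU lie at log2 9.59 or above on all PC3 arrays and at 5.08 or below on all LNCaP arrays.

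TIMP1, the secreted inhibitor of many metalloproteinases, was measured by probe set 1693_s_at. It read 12.47 and 12.42 in PC3 Notch1 cells, against 10.82 and 10.59 in PC3 GFP cells. Both Notch1 arrays lay above both GFP arrays, and the group means differed by log2 1.74 (SE 0.13, 95% confidence interval 1.45 to 2.04, limma adjusted p = 2.35e-05). Its level stood above 99.0% to 99.1% of all probe sets on the PC3 Notch1 arrays and above 95.7% to 96.4% on the PC3 GFP arrays. In LNCaP it read 4.84 and 5.08 in Notch1 cells and 4.92 and 4.81 in GFP cells. These LNCaP values overlapped and lay at the background level, with a difference of 0.10 (95% confidence interval -0.20 to 0.39, adjusted p = 0.709). The LNCaP change minus the PC3 change was -1.65 (SE 0.19, adjusted p = 0.000334). The probe set is of a type (_s_at) that related transcripts can share, as are 189_s_at of PLAUR and 1375_s_at of TIMP2.

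PLAU, urokinase, read 10.61 and 10.55 in PC3 Notch1 cells, against 9.59 and 9.74 in PC3 GFP cells at probe set 37310_at. Its groups did not overlap, and it rose by log2 0.91 (SE 0.14, 95% confidence interval 0.60 to 1.23, limma adjusted p = 0.00373). In LNCaP it read 4.18 and 4.45 in Notch1 cells and 4.17 and 3.90 in GFP cells, all under log2 5. The Notch1 arrays were the higher there too, but the difference of 0.27 did not pass the test (95% confidence interval -0.04 to 0.59, adjusted p = 0.237). The LNCaP change minus the PC3 change was -0.64 (SE 0.20) and missed the threshold (adjusted p = 0.0569), although it passed under 6 of 17 alternative settings. Among these, raising values under log2 5 to 5 fixed the LNCaP change of PLAU at 0. The rise of PLAU in PC3 is therefore not shown to differ from its change in LNCaP.

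PLAUR, the urokinase receptor, was not called at either of its probe sets in either line. At probe set 189_s_at it read 8.46 and 8.64 in PC3 Notch1 cells, against 9.09 and 8.66 in PC3 GFP cells. At 41169_at it read 7.54 and 7.25 in PC3 Notch1 cells, against 7.85 and 7.66 in PC3 GFP cells. The Notch1 arrays were the lower at both probe sets, with differences of -0.32 (SE 0.15, adjusted p = 0.219) and -0.36 (SE 0.13, adjusted p = 0.137) that limma did not call. Without PC3 GFP replicate 2 the first became -0.54 and passed (adjusted p = 0.0403). In LNCaP PLAUR read 7.37 and 7.55 in Notch1 cells, against 7.24 and 7.18 in GFP cells, at 189_s_at. At 41169_at it read 7.06 and 7.19 in LNCaP Notch1 cells, against 6.93 and 6.86 in LNCaP GFP cells. Both PLAUR probe sets were higher on the LNCaP Notch1 arrays, by 0.25 and 0.23, and neither change passed (adjusted p = 0.329 and 0.299).

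MMP1, interstitial collagenase, which cleaves fibrillar collagens, read 2.43 and 2.06 in PC3 Notch1 cells, against 5.06 and 5.16 in PC3 GFP cells at probe set 38428_at. The groups lay far apart and the mean fell by 2.87 (SE 0.15, 95% confidence interval -3.19 to -2.54, limma adjusted p = 1.02e-06). The PC3 Notch1 level stood above 8.86% to 11.9% of the probe sets on its arrays, and the PC3 GFP level above 37.3% to 38.7%, just over log2 5. In LNCaP the values were 1.66 and 1.65 in Notch1 cells and 1.65 and 1.40 in GFP cells, above 2.05% to 3.27% of the probe sets. That difference was 0.14 (95% confidence interval -0.19 to 0.46, adjusted p = 0.616), and the LNCaP change minus the PC3 change was 3.0 (SE 0.21, adjusted p = 2.02e-05).

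MMP13, collagenase 3, read 1.91 and 2.13 in PC3 Notch1 cells, against 3.77 and 4.08 in PC3 GFP cells at probe set 39632_at. It fell by 1.90 (SE 0.15, 95% confidence interval -2.24 to -1.57, limma adjusted p = 3.32e-05), with all 4 values under log2 5. In LNCaP it read 2.39 and 2.12 in Notch1 cells and 1.86 and 2.02 in GFP cells, again under log2 5 throughout. The LNCaP Notch1 arrays were the higher by 0.32 (95% confidence interval -0.02 to 0.65, adjusted p = 0.204). The LNCaP change minus the PC3 change was 2.22 (SE 0.21, adjusted p = 0.000126).

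How far the collagenases fell in PC3 depended on how low values were read. With values under log2 5 raised to 5, the change of MMP1 was -0.11 (adjusted p = 0.197) and that of MMP13 was 0.00. That level set every MMP13 value to 5 and left MMP1 only the PC3 GFP excess over 5, which fixed these sizes. With values raised to log2 4, a level chosen after seeing the data, MMP1 still fell, by 1.11, but MMP13 did not pass (-0.04, adjusted p = 0.51). With a level of log2 3, also chosen after seeing the data, MMP1 fell by 2.11 and MMP13 by 0.92, and both passed. TIMP1 and PLAU in PC3 lay above all of these levels.

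**Figure D2:**
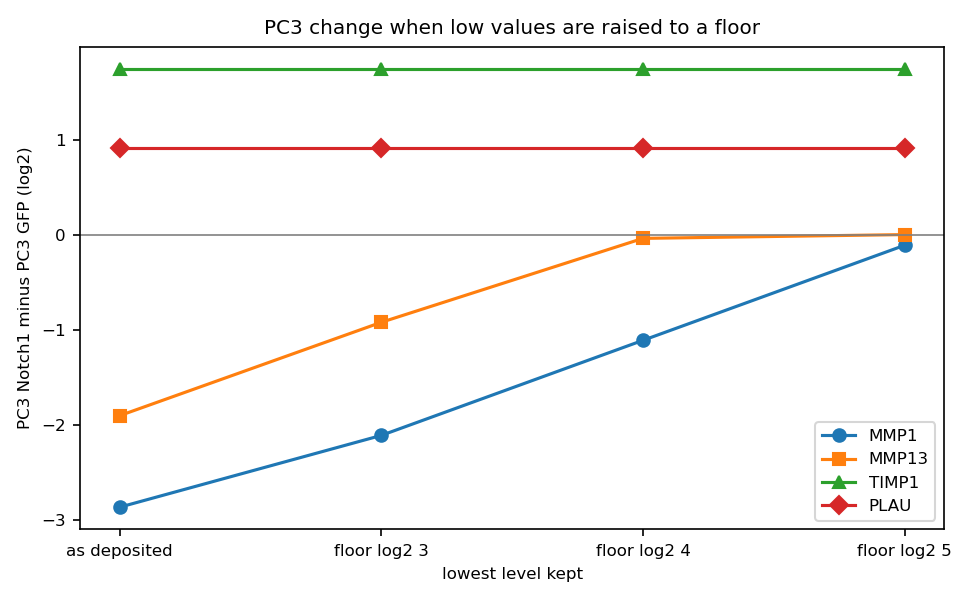
Change in PC3 (PC3 Notch1 minus PC3 GFP, log2, vertical axis) of MMP1, MMP13, TIMP1 and PLAU with the values as deposited and with values under log2 3, 4 or 5 raised to that level (horizontal axis). Points are differences of group means of 2 arrays, and lines join the points of 1 gene. TIMP1 stays at 1.74 and PLAU at 0.91, while MMP1 goes to -0.11 and MMP13 to 0.00 at log2 5.

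MMP10, stromelysin 2, lay under log2 5 on all 8 arrays at probe set 1006_at. It read 3.43 and 3.34 in PC3 Notch1 cells, against 3.87 and 3.77 in PC3 GFP cells, and 3.46 and 3.64 in LNCaP Notch1 cells, against 3.83 and 3.73 in LNCaP GFP cells. The Notch1 arrays were the lower in both lines, with differences of -0.43 in PC3 (SE 0.12, limma adjusted p = 0.0597) and -0.23 in LNCaP (SE 0.12, adjusted p = 0.243), and neither passed. No difference between the lines' changes was detected (0.20, adjusted p = 0.419). MMP10 was the 1 probe set of the 13 whose mean was lower with Notch1 in LNCaP.

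MMP14, a membrane-anchored metalloproteinase that activates pro-MMP2, was well above log2 5 in every group. Probe set 34747_at read 7.53 and 7.53 in PC3 Notch1 cells, against 7.93 and 7.79 in PC3 GFP cells, and 8.20 and 8.12 in LNCaP Notch1 cells, against 8.01 and 7.95 in LNCaP GFP cells. The PC3 values were lower and the LNCaP values higher with Notch1, without overlap, but the changes of -0.33 (SE 0.11, limma adjusted p = 0.112) and 0.18 (SE 0.11, adjusted p = 0.339) did not pass. Their difference was 0.51 (SE 0.16, adjusted p = 0.058) and passed under 8 of 17 alternative settings. Probe set 160020_at of MMP14 read 7.09 and 7.24 in PC3 Notch1 cells, against 7.46 and 7.25 in PC3 GFP cells, and 7.16 and 7.37 in LNCaP Notch1 cells, against 7.23 and 7.18 in LNCaP GFP cells. It differed by -0.19 in PC3 (adjusted p = 0.372) and 0.06 in LNCaP (adjusted p = 0.828).

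TIMP2, which both inhibits MMP2 and helps MMP14 to activate it, did not pass the test in either line. Probe set 1375_s_at read 7.36 and 7.21 in PC3 Notch1 cells, against 7.34 and 7.36 in PC3 GFP cells, values that overlapped (difference -0.06, 95% confidence interval -0.33 to 0.20, limma adjusted p = 0.757). At 34722_at TIMP2 read 6.96 and 7.19 in PC3 Notch1 cells, against 7.54 and 7.23 in PC3 GFP cells (difference -0.31, 95% confidence interval -0.63 to 0.02, adjusted p = 0.222). In LNCaP the Notch1 arrays were the higher at both, without overlap. They read 6.13 and 6.0 in Notch1 cells, against 5.94 and 5.84 in GFP cells, at 1375_s_at (0.17, adjusted p = 0.384). At 34722_at they read 6.90 and 7.11 in Notch1 cells, against 6.88 and 6.77 in GFP cells (0.18, adjusted p = 0.485).

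TIMP3, the inhibitor that stays bound to the matrix, also missed the threshold in both lines. Probe set 1035_g_at read 5.28 and 5.28 in PC3 Notch1 cells, against 5.55 and 5.54 in PC3 GFP cells, and 6.53 and 6.63 in LNCaP Notch1 cells, against 6.27 and 6.40 in LNCaP GFP cells. With Notch1 it differed by -0.26 in PC3 (SE 0.11, limma adjusted p = 0.191) and by 0.24 in LNCaP (SE 0.11, adjusted p = 0.189), with no overlap in either line and no call. The difference between these changes of TIMP3 was 0.50 (SE 0.16, adjusted p = 0.0631) and passed under 5 of 17 alternatives. Probe set 1034_at read 5.59 and 5.73 in PC3 Notch1 cells, against 5.80 and 5.80 in PC3 GFP cells (-0.14, adjusted p = 0.508), and 6.24 and 6.13 in LNCaP Notch1 cells, against 6.29 and 6.05 in LNCaP GFP cells (0.02, adjusted p = 0.951).

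Counted together, 4 of the 13 probe sets (30.8%) were called in PC3, 2 higher and 2 lower, against 6.2% of all probe sets (4.19% higher and 2.01% lower). The PC3 values with and without Notch1 did not overlap at 12 of 13 probe sets, 2 with Notch1 above and 10 below, against 56% of all probe sets (20.6% above and 35.4% below). The median change over the 13 was -0.31, against -0.08 over all probe sets. Of the gene lists read below, leukocyte and stromal markers had medians of -0.24 and -0.15 in PC3. Only the list of genes known for PC3 cells had a positive one (0.25). With values under log2 5 raised to 5, or with probe sets of low mean left out (MMP1, MMP10 and MMP13 among them), 2 were called, TIMP1 and PLAU. The first setting flattened MMP1 and MMP13 and the second dropped them, so neither weighs their falls.

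In LNCaP 0 of the 13 were called, against 17.3% of all probe sets (8.01% higher and 9.32% lower), and by limma 0 had an unadjusted p under 0.05, the lowest being 0.0567 for TIMP3. Notch1 and GFP arrays of LNCaP did not overlap at 10 of 13 probe sets, 9 with Notch1 above and 1 below, against 57% of all probe sets (32.9% above and 24.1% below). The median change was 0.18, against 0.04 over all probe sets. Leukocyte and stromal markers both had LNCaP medians of 0.13, while genes of LNCaP identity had -0.78 and transmembrane serine proteases and their inhibitors -0.43. The LNCaP changes ran from -0.23 at MMP10 to 0.32 at MMP13.

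The difference between the lines' changes was called at 3 of 13 probe sets, those of MMP1, MMP13 and TIMP1, against 14.2% of all probe sets (6.49% higher and 7.67% lower). For MMP1 and MMP13 the LNCaP change minus the PC3 change was positive and for TIMP1 it was negative. The LNCaP values of MMP1 and MMP13 lay far under log2 5, so a fall like that in PC3 could not be read there. A further 6 probe sets had an unadjusted p under 0.05 without passing: those of PLAU, both of PLAUR, and 1 each of MMP14, TIMP2 and TIMP3. Of these, PLAU had a negative difference and the other 5 positive ones between 0.49 and 0.59. Each of the 6 passed in at least 1 alternative, up to 8 of 17 for MMP14 at 34747_at.

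**Figure D3:**
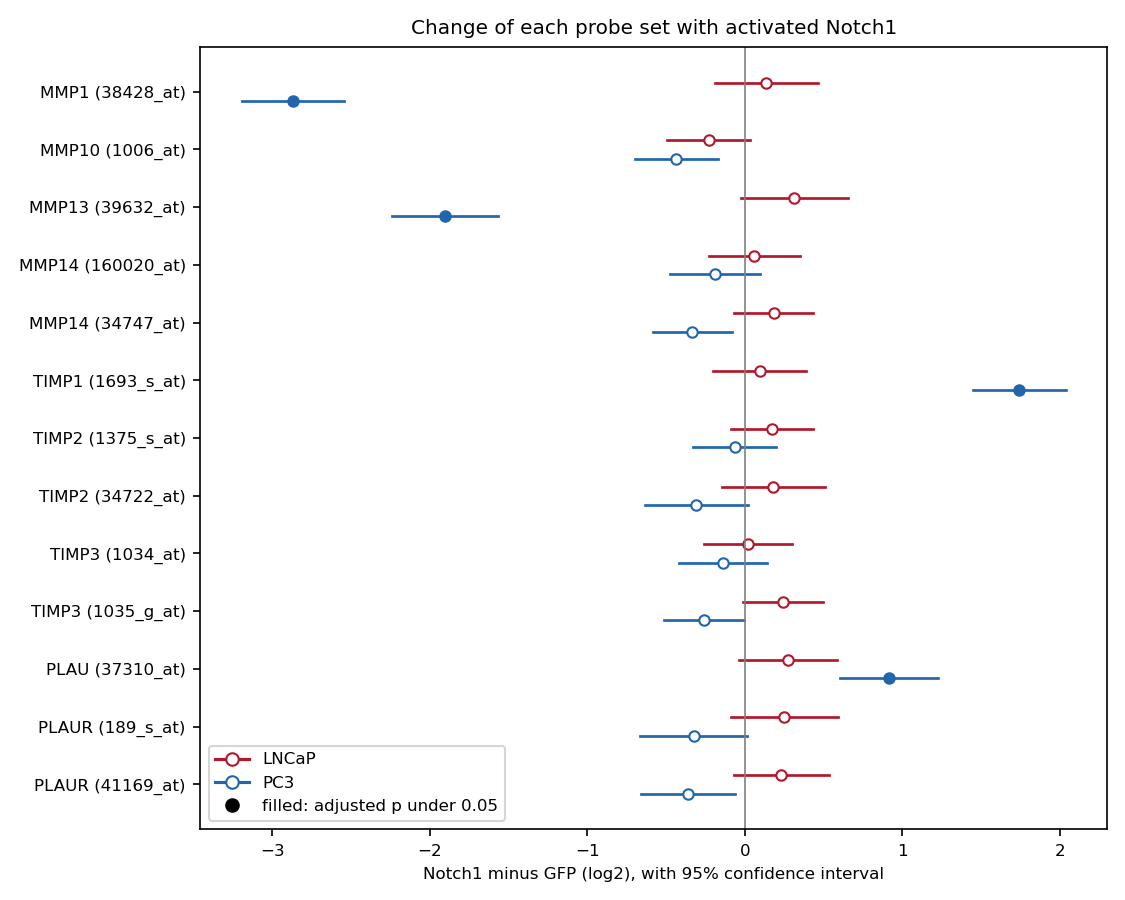
Change with activated Notch1 (Notch1 minus GFP, log2, horizontal axis) of each of the 13 probe sets, LNCaP in red above PC3 in blue. Points are differences of group means of 2 arrays, bars are 95% confidence intervals of the limma fit, and filled points have an adjusted p under 0.05. The 4 filled points are MMP1, MMP13, TIMP1 and PLAU in PC3, and all LNCaP intervals include 0.

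Of the 13 probe sets 10 were called between LNCaP GFP and PC3 GFP cells, 2 higher and 8 lower in LNCaP, against 58.8% of all probe sets (40.3% higher and 18.5% lower). The GFP arrays of the lines did not overlap at 12 of 13 probe sets, 3 with LNCaP above and 9 below, against 78.4% of all probe sets (52.8% above and 25.5% below). TIMP1 (-5.84, limma adjusted p = 9.3e-11) and PLAU (-5.63, adjusted p = 1.56e-10) were lower in LNCaP, where their values lay near the background. With values under log2 5 raised to 5 these differences were -5.70 and -4.67, and both stayed called. The LNCaP difference from PC3 was -1.66 and -0.86 at the probe sets of PLAUR and -1.46 and -0.56 at those of TIMP2. It was -3.59 for MMP1 and -1.98 for MMP13, both from values near or under log2 5. Raising these to 5 gave no call, an outcome set by how low they lay. TIMP3 was higher in LNCaP, by 0.79 at 1035_g_at (adjusted p = 0.000123) and 0.37 at 1034_at (adjusted p = 0.0271). MMP10 differed by -0.04 and MMP14 by -0.16 and 0.12, with no call.

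The sources used here do not say how the arrays of the lines were scaled to each other. Array medians were 6.28 to 6.36 in LNCaP and 5.95 to 6.01 in PC3, and centring the arrays moved the median difference between the lines by -0.28. TIMP3 at 1034_at was then no longer called (0.09), and MMP10 (-0.32, adjusted p = 0.0441) and MMP14 at 160020_at (-0.44, adjusted p = 0.0138) were called lower in LNCaP. The call of TIMP3 at 1034_at was also lost without LNCaP GFP replicate 1, PC3 GFP replicate 1 or PC3 GFP replicate 2 (adjusted p = 0.224, 0.0678 and 0.0661), and that of TIMP2 at 34722_at when PC3 GFP replicate 1 was omitted (adjusted p = 0.0524) or when low values were raised to log2 5 (adjusted p = 0.0502).

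The other genes of these systems were read from lists, by the probe set with the highest mean for each gene. Counts in these and the later lists stand against shares over all probe sets of 8.01% higher and 9.32% lower in LNCaP. In PC3 those shares were 4.19% higher and 2.01% lower. Of 14 other matrix metalloproteinases 0 were called in LNCaP by limma (1 at an unadjusted p under 0.05), and MMP7 alone was called in PC3. MMP7, matrilysin, read 5.35 and 5.35 in PC3 Notch1 cells, against 3.82 and 3.89 in PC3 GFP cells, a rise of 1.5 (SE 0.12, adjusted p = 2.64e-05). With values under log2 5 raised to 5 the change was 0.35. That setting gave 6 of the 8 arrays the same value, so the call MMP7 kept there cannot be weighed. In LNCaP MMP7 read 3.0 and 2.80 in Notch1 cells and 2.86 and 2.87 in GFP cells, and the LNCaP change minus the PC3 change was -1.46 (adjusted p = 0.0003). The gelatinases MMP2 (-0.25) and MMP9 (-0.20) did not pass in PC3.

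MMP7, MMP10, MMP1 and MMP13 lie in 1 cluster on chromosome 11, in the order MMP7, MMP20, MMP27, MMP8, MMP10, MMP1, MMP3, MMP12 and MMP13 in the RefSeq annotation (GRCh38.p14). Of these 9 genes 8 were measured. In PC3 MMP7 rose, MMP1 and MMP13 fell, and the 5 others (MMP20, MMP8, MMP10, MMP3 and MMP12) were at -0.17, -0.32, -0.43, -0.36 and -0.15 without a call, all from values under log2 5. As deposited, the cluster held called changes in both directions in PC3 and none in LNCaP. The readings of MMP7, MMP1 and MMP13 also lay near or under log2 5. With values raised to 5 MMP1 and MMP13 were not called, so the 2 directions rest on readings near background. The other 6 genes lie on chromosomes of their own: MMP14 is on 14, TIMP1 on X, TIMP2 on 17, TIMP3 on 22, PLAU on 10 and PLAUR on 19.

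**Figure D4:**
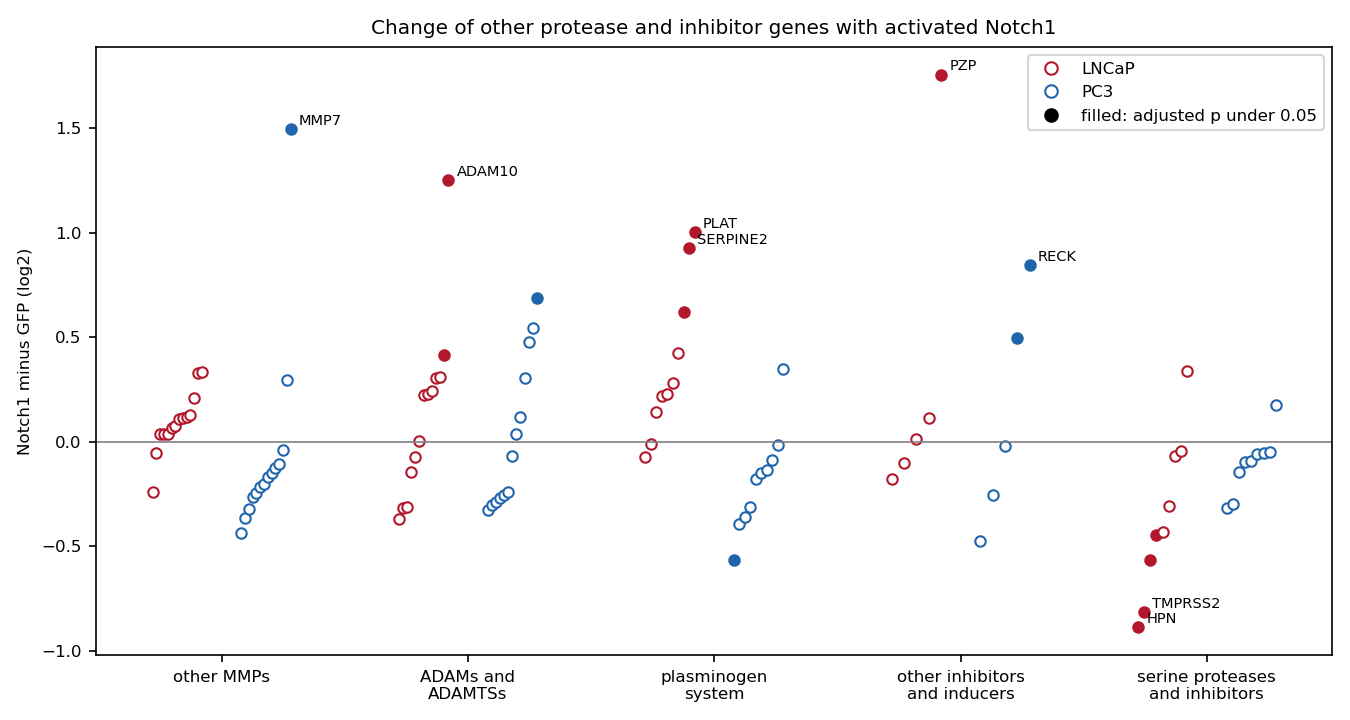
Change with activated Notch1 (Notch1 minus GFP, log2, vertical axis) of other proteases, inhibitors and partners, 1 point per measured gene, grouped by list along the horizontal axis, LNCaP in red left of PC3 in blue. Points are differences of group means of 2 arrays, and filled points have an adjusted p under 0.05. PLAT and SERPINE2 are filled at 1.00 and 0.93 in LNCaP, and MMP7 at 1.5 in PC3.

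Among 10 measured partners and inhibitors of the plasminogen system, 3 rose and 0 fell in LNCaP. PLAU was not called in that line, and PLAUR was called in neither line. PLAT, tissue plasminogen activator, read 6.12 and 5.83 in LNCaP Notch1 cells, against 4.98 and 4.96 in LNCaP GFP cells, and rose by 1.00 (SE 0.13, limma adjusted p = 0.000325). SERPINE2, an inhibitor of urokinase, thrombin and tissue plasminogen activator, read 8.45 and 8.45 in LNCaP Notch1 cells, against 7.41 and 7.64 in LNCaP GFP cells, and rose by 0.93 (adjusted p = 0.000762). S100A10, a plasminogen-binding partner of annexin A2, read 6.72 and 6.76 in LNCaP Notch1 cells, against 6.08 and 6.17 in LNCaP GFP cells, and rose by 0.62 (adjusted p = 0.00293). In PC3 0 of the 10 rose and 1 fell, LRP1, a scavenger receptor that clears urokinase-inhibitor complexes, named after its values were seen (-0.56, adjusted p = 0.0365). LRP1 lost its call in 11 of its alternative settings, among them leaving out either array of PC3 Notch1 or PC3 GFP. The LNCaP change minus the PC3 change was called for PLAT (1.09, adjusted p = 0.00274), SERPINE2 (1.29, adjusted p = 0.0016) and LRP1 (0.85, adjusted p = 0.0155). For LRP1 this call was lost in 6 of 17 alternatives: with each of the 3 raised levels and without LNCaP Notch1 replicate 2, LNCaP GFP replicate 2 or PC3 Notch1 replicate 1 (adjusted p = 0.0605, 0.0649 and 0.0746).

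Among 5 other inhibitors and inducers of metalloproteinases, 1 rose in LNCaP and 2 in PC3. PZP, a broad protease trap related to alpha-2-macroglobulin, read 6.45 and 6.61 in LNCaP Notch1 cells, against 4.8 and 4.74 in LNCaP GFP cells, and rose by 1.75 (SE 0.14, limma adjusted p = 1.27e-05). RECK, a membrane-anchored inhibitor of metalloproteinases, read 6.29 and 6.03 in PC3 Notch1 cells, against 5.19 and 5.43 in PC3 GFP cells, and rose by 0.85 (adjusted p = 0.00587). At its 2 dimmer probe sets RECK differed by 0.65 and 0.64 (adjusted p = 0.0585 and 0.0843), and its call was lost with any of the 3 raised levels and without PC3 Notch1 replicate 1. TFPI2, a serine protease inhibitor of the matrix, differed by 0.50 in PC3 (adjusted p = 0.0445), from values under log2 5. That call was lost in 12 of 17 alternatives, among them leaving out any 1 array other than PC3 GFP replicate 2 (adjusted p = 0.278 without PC3 Notch1 replicate 1), and with values raised to 5 the change was 0.00.

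The ADAM and ADAMTS proteases, which shed membrane proteins and cleave matrix, were measured for 13 genes, of which 2 rose in LNCaP, 1 rose in PC3 and 0 fell. With the mean over a gene's probe sets the LNCaP counts were 1 higher and 1 lower. ADAM10, which makes the cut in Notch that ligand binding triggers, read 9.31 and 9.09 in LNCaP Notch1 cells, against 8.01 and 7.89 in LNCaP GFP cells, and rose by 1.25 (SE 0.12, limma adjusted p = 5.22e-05). In PC3 it read 7.54 and 7.48 in Notch1 cells, against 6.84 and 6.81 in GFP cells, and rose by 0.69 (adjusted p = 0.00805), a call lost without PC3 Notch1 replicate 1 or replicate 2 (adjusted p = 0.0826 and 0.0633). Its dimmer probe set 40797_at (log2 5.22 to 7.82 over the arrays, against 6.81 to 9.31) differed by 0.75 and 0.69 in the same lines (adjusted p = 0.0702 and 0.134). At 31934_at, with values of 1.28 to 1.54, ADAM10 differed by 0.13 and 0.03 (adjusted p = 0.542 and 0.899). ADAM17, the sheddase of tumour necrosis factor, was called in LNCaP at 1 probe set (0.42, adjusted p = 0.0336), at 0.40 and 0.00 at the other 2 (adjusted p = 0.0706 and 0.996), and the call was lost without any 1 array of LNCaP. In PC3 that first probe set was at 0.04 and another, 1226_at, at 1.05 (adjusted p = 0.00106), so the probe sets of ADAM17 disagreed.

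Of 9 transmembrane serine proteases, convertases and their inhibitors 4 fell in LNCaP and 0 rose, and in PC3 limma called 0 (1 at an unadjusted p under 0.05). HPN, hepsin, which can activate pro-urokinase, read 9.66 and 9.47 in LNCaP Notch1 cells, against 10.56 and 10.34 in LNCaP GFP cells, and fell by 0.89 (SE 0.14, adjusted p = 0.00121). TMPRSS2, an androgen-regulated protease, read 8.36 and 8.27 in LNCaP Notch1 cells, against 9.08 and 9.18 in LNCaP GFP cells, and fell by 0.82 (adjusted p = 0.00214). PCSK7, a proprotein convertase, fell by 0.56 (adjusted p = 0.0394) and SPINT2, an inhibitor of hepsin named after its values were seen, by 0.44 (adjusted p = 0.023). The calls of PCSK7 and SPINT2 were lost in 6 and 4 settings, among them leaving out LNCaP Notch1 replicate 2, LNCaP GFP replicate 1 or LNCaP GFP replicate 2.

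For each of the 4 genes that changed in PC3, the 3 named genes with the closest profile were found by the root mean square distance over the 8 arrays, each profile centred on its own mean and restricted to means of at least log2 5. PLAU lay closest to CD44, the hyaluronan receptor (distance 0.14), S100A2, an EF-hand calcium binder found in basal cells (0.21), and HTRA1, a secreted serine protease (0.25). TIMP1 lay closest to S100A2 at another probe set (0.21), TM4SF1, a tetraspanin-like membrane protein (0.28), and TCN1, a vitamin B12 carrier (0.35). MMP1 lay closest to ITGB4, the hemidesmosome integrin (0.50), NTSR1, the neurotensin receptor (0.67), and ABCC3, a transporter (0.72). MMP13 lay closest to AP1S1 (0.31), an adaptor subunit of vesicle coats, SERPIND1, heparin cofactor (0.37), and ZNF248 (0.39). For PLAU and TIMP1 these distances rest mostly on the difference between the lines (-5.63 and -5.84), which was larger than the PC3 change (0.91 and 1.74). For MMP1 and MMP13 the lines differed by -3.59 and -1.98, against PC3 changes of -2.87 and -1.90. HTRA1, alone of these closest genes, was not called in PC3 (0.56, limma adjusted p = 0.0826). The genes were picked for closeness to members called on these same arrays, so their PC3 calls were largely built in. MMP13 itself lay under log2 5 on all 8 arrays. Its neighbour ZNF248 was also called lower in LNCaP (-0.48, adjusted p = 0.0197), where MMP13 was at 0.32.

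Marker genes of the lines and of other cell types moved in part with the same groups. Of 12 genes known for PC3 cells 5 rose in PC3 with Notch1 (CAV1, CAV2, CD44, TM4SF1 and S100A2), beside TIMP1 and PLAU, and 0 fell. The mean level of the 12 was log2 9.27 to 9.33 on PC3 Notch1 arrays and 8.89 to 8.96 on PC3 GFP arrays. In LNCaP 2 of the 12 rose with Notch1 (ANXA1 and EGFR) and 0 fell. Their mean over all 12 was 5.39 to 5.41 on LNCaP Notch1 arrays and 4.98 to 5.02 on LNCaP GFP arrays. That shift came largely from ANXA1, which rose by 3.24. The median change of the 12 in LNCaP was 0.06, and 6 of them were under log2 5 in each LNCaP group. Of 6 genes of LNCaP identity 5 fell in LNCaP (KLK3, KLK2, TMPRSS2, ACP3 and KRT18), with a mean of 8.40 to 8.57 on LNCaP Notch1 arrays and 9.35 to 9.47 on LNCaP GFP arrays. In a bulk culture fewer cells of a kind and less RNA per cell cannot be told apart.

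Of 12 stromal markers ACTA2, smooth muscle actin, rose in LNCaP (1.28). In PC3 limma called 0 of them (2 at an unadjusted p under 0.05), and 5 were under log2 5 in each PC3 group. The mean stromal level was 6.15 to 6.16 on LNCaP Notch1 arrays and 5.91 to 5.96 on LNCaP GFP arrays, and 5.23 to 5.26 on PC3 Notch1 arrays and 5.34 to 5.42 on PC3 GFP arrays. ACTA2 made up much of the LNCaP shift, as the median stromal change there was 0.13. Of 14 leukocyte markers limma called 0 in either line (1 in LNCaP and 4 in PC3 at an unadjusted p under 0.05), with 6 to 8 of them under log2 5 in each group. Their mean level was 5.19 to 5.27 on LNCaP Notch1 and 5.06 to 5.12 on LNCaP GFP arrays, and 4.76 to 4.88 on PC3 Notch1 and 4.94 to 5.11 on PC3 GFP arrays. The part of these shifts in the results above was not tested.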

How the data were processed

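Total RNA of LNCaP and PC3 cells was labelled with biotin and hybridised to Affymetrix U95Av2 arrays, 2 per group. The authors summarised the scanned arrays by RMA and deposited log2 expression values per probe set. The sources used here give no version of RMA or limma for that step and do not say whether both lines were normalized together. These log2 values carry no detection call, so a log2 level of 5 was taken as near background. With 2 arrays in each group, their number sets how precise a difference can be.

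Of 12625 probe sets 67 controls were left out. Gene symbols came from the platform annotation: 10943 tested probe sets had 1 symbol, 545 several and 1070 none, and 10934 of the named ones were found in the RefSeq gene table. One mean per group was fitted over all 8 arrays with limma 3.58.1 in R 4.3.3, with eBayes (4 residual and 6.37 prior degrees of freedom), two-sided tests and Benjamini-Hochberg adjustment over 12558 probe sets. The fit was tested on simulated data. The members and the gene lists were chosen with earlier results of these data known. All member probe sets are named, with up to 3 called genes of each other list by size of change in either line, HES1, and 3 genes of nearest profile. Alternatives were median centring, quantile normalization, raised low values, a filter on dim probe sets, each line alone, a trended or robust prior, the replicate number as a block, and leaving out each array. Promoters of MMP1, MMP13 and TIMP2 were not used here.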

Additional observations from a re-analysis of the deposited data

Results flagged for a closer look

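The difference between the lines' changes with activated Notch1 was called for MMP1, MMP13 and TIMP1. The LNCaP change minus the PC3 change was 3.0 for MMP1 at 38428_at (0.14 in LNCaP against -2.87 in PC3), and 2.22 for MMP13 at 39632_at (0.32 in LNCaP against -1.90 in PC3). It was -1.65 for TIMP1 at 1693_s_at (0.10 in LNCaP against 1.74 in PC3). All 3 started from lower levels in LNCaP GFP than in PC3 GFP cells. For MMP1 and MMP13 the LNCaP GFP means (1.52 and 1.94) lay below even the PC3 Notch1 means (2.24 and 2.02). A fall of the PC3 size could not be read there, so the test cannot show a line-specific response of either gene. With values under log2 5 raised to 5 the difference was 0.11 for MMP1 (limma adjusted p = 0.236) and 0.00 for MMP13, and that of TIMP1 remained called. The raised level itself fixed the sizes for MMP1 and MMP13.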

How the results depend on the processing

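The changes of TIMP1 (1.63 to 1.86) and PLAU (0.79 to 0.99) in PC3 kept their direction and call in all 18 alternatives, and the LNCaP count of called probe sets was 0 in each. The PC3 count of 4 became 2 with values under log2 5 raised to 5 and with probe sets of a mean above the 25th percentile only. The first of these flattened MMP1 and MMP13 and the second dropped them. The count lay between 4 and 5 when 1 array was left out. The count of 3 differences between the lines became 5 with low values raised to log2 3 and 5 with a trended prior, and lay between 3 and 8 when 1 array was left out (8 without PC3 GFP replicate 2). The line count of 10 lay between 8 and 10 without 1 array and between 7 and 11 otherwise. For PLAU the difference between the lines passed under median centring (-0.74, adjusted p = 0.0386) and with the log2 5 level (-0.91, adjusted p = 0.00949). The log2 5 level raised all LNCaP values of PLAU to 5, so its LNCaP change was fixed at 0 there.

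Replicate numbers are shared across groups, but each comparison has only 2 and the sources do not say what a number marks, so they were not taken to pair the arrays. Deviations of replicate 1 correlated at r = 0.124 to 0.545 between groups. With the replicate block the count of differences between the lines became 7, gaining MMP14 at 34747_at (adjusted p = 0.03), TIMP3 at 1035_g_at (0.0341), PLAU (0.0421) and PLAUR at 41169_at (0.0357), and MMP10 was called lower in PC3 (-0.43, adjusted p = 0.0362).

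Some small differences changed sign. In LNCaP, TIMP3 at 1034_at was -0.042 under median centring and -0.049 under quantile normalization, and ran from -0.103 (without LNCaP GFP replicate 2) to 0.140 when 1 array was left out, with -0.034 without LNCaP Notch1 replicate 1. MMP14 at 160020_at ran from -0.040 to 0.162 and TIMP1 from -0.027 to 0.220, both lowest without LNCaP Notch1 replicate 2. In PC3, TIMP2 at 1375_s_at ran from -0.141 to 0.012, highest without PC3 Notch1 replicate 2. Between the lines, MMP14 at 34747_at was -0.161 under median centring and -0.059 under quantile normalization. MMP10 ran from -0.090 to 0.011, at 0.011 without LNCaP GFP replicate 2 and 0.0071 without PC3 GFP replicate 1.

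Over all probe sets the counts of calls moved more. They were 2176 in LNCaP (1329 to 2546 without 1 array, 1415 to 2871 otherwise), 779 in PC3 (251 to 1694 and 347 to 1507), 1778 for the difference between the lines (950 to 2664 and 1063 to 2879) and 7386 between the GFP groups (6344 to 7291 and 4805 to 8043). Raising low values also took the prior degrees of freedom of the fit to between 0.386 and 0.622, so calls of brighter genes such as RECK could be lost with it. Levels under log2 5 limit what can be said of MMP1, MMP10 and MMP13, and of TIMP1 and PLAU in LNCaP.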
